A study of Mus musculus with 24 samples.

Results

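The 59 genes described here encode the actin cytoskeleton and the focal adhesions that tie it to the matrix, and they were chosen by name from a total of 21755 protein-coding genes. Trimethylation of histone H3 at lysine 4 (H3K4me3) was mapped by chromatin immunoprecipitation and sequencing (ChIP-seq) with an in-house antibody in C127, a line of mammary epithelial origin from mouse whose labels name no transgene for these libraries. The series holds 24 samples in 12 groups, and the 3 H3K4me3 replicates are represented by a single list of 13451 consensus peaks on mm10. That list was the input, and the merged signal track that the labels also name was not used here. No score stands beside a peak in the list, so depth is unknown, no replicate error can be given, and the values below are positions and widths of called peaks without a test. A gene counted as having a peak when one came within 250 bp of any of its transcription start sites (TSSs) in the GENCODE vM21 basic annotation.

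Actin monomers assemble into filaments that myosin II slides, that tropomyosins coat, and that alpha-actinins and filamins crosslink. At focal adhesions, integrins in the plasma membrane bind the matrix outside and, through talin, vinculin, kindlin and the ILK complex, the filaments inside. Small GTPases such as RhoA, Rac1 and Cdc42 control filament assembly, and the transcription factor SRF with its actin-sensing cofactor Mkl1 (Mrtfa in the annotation used) binds CArG boxes in the promoters of many of these genes. H3K4me3 is a mark of the nucleosomes around active promoters and is found mostly at CpG islands, stretches of DNA rich in unmethylated CpG dinucleotides.

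H3K4me3 covered most of this machinery in C127 cells. A TSS peak was present at 52 of the 59 genes (88.1%), against 49.4% of all protein-coding genes. The 7 genes without one included Acta2, Cnn1 and Tagln, which encode smooth muscle forms of actin, calponin and transgelin. Myl9 and Mylk, which encode a myosin light chain and a myosin light chain kinase, also had none. The others were Tln2, the less widely expressed talin, and Macf1, a giant linker of actin and microtubules. The peaks that were present were wide, with a median of 5127 bp over the 52 genes, against 3254 bp over the 10747 protein-coding genes with a TSS peak.

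Promoter sequence is shown for genes with and without a peak, because in several of these families a broadly expressed member carried H3K4me3 and a smooth muscle member did not. The stretch of 200 bases that begins 250 bases before the RefSeq start and ends 51 bases before it (GRCm38.p6, which is the mm10 assembly) is given for Cnn2, a calponin gene with a peak, for its paralog Cnn1 without one, and for Myl9, which had a CpG island at its TSS but no peak. Every CpG is in capitals.
Cnn2 (chr10:79988350-79988549, plus strand): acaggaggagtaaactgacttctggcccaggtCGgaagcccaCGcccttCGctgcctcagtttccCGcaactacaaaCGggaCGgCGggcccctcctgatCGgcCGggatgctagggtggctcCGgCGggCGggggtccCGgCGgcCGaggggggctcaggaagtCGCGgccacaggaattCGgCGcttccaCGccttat
Cnn1 (chr9:22099003-22099202, plus strand): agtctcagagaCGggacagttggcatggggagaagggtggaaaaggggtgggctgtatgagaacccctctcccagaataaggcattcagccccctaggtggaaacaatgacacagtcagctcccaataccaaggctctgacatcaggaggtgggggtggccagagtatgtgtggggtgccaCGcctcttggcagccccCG
Myl9 (chr2:156775214-156775413, plus strand): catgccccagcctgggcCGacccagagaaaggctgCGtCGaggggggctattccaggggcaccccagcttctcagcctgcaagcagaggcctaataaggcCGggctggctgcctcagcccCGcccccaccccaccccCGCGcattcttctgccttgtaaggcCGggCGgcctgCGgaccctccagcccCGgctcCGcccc
In these bases Cnn2 held 20 CpGs, Cnn1 held 3 and Myl9 held 12. The actin genes differed in the same direction. Within 250 bp of the TSS richest in CpGs, Actg1 (gamma-actin) had 77 CpGs and Actb (beta-actin) had 44, both with a peak. Acta2 (smooth muscle actin, without one) had 9. The transgelin genes were nearly equal by this count, with 23 CpGs for Tagln2, which had a peak, and 22 for Tagln, which had none.

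The motif through which SRF acts on cytoskeletal genes was searched in 62 RefSeq promoters of 50 of the 59 genes, from 250 bases before to 50 after each start. Actb, Diaph1, Parva, Plec, Ptk2, Pxn, Rac1, Tagln and Tln2 were not in the promoter table. The CArG box, a run of 6 A or T bases between a CC and a GG, reads the same way on both strands. It was found at 6 of the 62 promoters (9.68%), against 535 of all 32851 promoters (1.63%). The stretches that hold it are printed with the box in capitals.
Actg1 (chr11:120348556-120348605, minus strand): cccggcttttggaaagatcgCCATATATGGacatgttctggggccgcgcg
Cnn2 (chr10:79988524-79988573, plus strand): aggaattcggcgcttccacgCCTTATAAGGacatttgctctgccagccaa
Srf (chr17:46556195-46556264, minus strand): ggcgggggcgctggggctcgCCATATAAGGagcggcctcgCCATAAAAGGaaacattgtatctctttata
Vcl (chr14:20929151-20929200, plus strand): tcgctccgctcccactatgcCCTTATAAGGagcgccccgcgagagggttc
Fermt2 (chr14:45530240-45530289, minus strand): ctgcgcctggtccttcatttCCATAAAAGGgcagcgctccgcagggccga
Myl9 (chr2:156775283-156775332, plus strand): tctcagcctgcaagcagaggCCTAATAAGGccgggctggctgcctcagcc
The box began 90 bases before the start in Actg1 and 56 bases before it in Cnn2. Srf, which encodes the factor itself, held boxes 82 and 62 bases before its start. In Vcl (vinculin) and Fermt2 (kindlin 2) the box lay farther out, at 227 and 204 bases. These 5 promoters had an H3K4me3 peak, while Myl9, with a box 161 bases before its start, had none. No box of this exact form was found in the windows of Acta2 or Cnn1, and looser matches were not searched.

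The TATAAA sequence, on either strand, was in 7 of the 62 promoters (11.3%), against 13.6% of all promoters. Among promoters with a peak it was in 6 of 52 (11.5%), against 5.63% of those of protein-coding genes, so the order of the shares depended on the promoters compared. It lay in Cav1, Cdc42, Lims1, Myh9, Rhoa, Srf and Vim. TGACGTCA, the palindromic site of CREB family factors, was in 1 promoter of the set, that of Cdc42 (1.61%), against 1.79% of all promoters. GGGCGG, the core of the Sp1 site, was in 43 of the 62 on either strand (69.4%), against 35.7% of all promoters. Among promoters with a peak the shares were nearer, 78.8% in the cytoskeletal set and 69.6% in protein-coding genes generally. A CArG box can itself hold TATAAA, although none of those printed does, and a match is a description of the sequence only.

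Of the 3 actins, Actb and Actg1 had a wide peak and Acta2 had none. Actb, which encodes beta-actin, carried a peak of 6778 bp (chr5:142903794-142910571) that was wider than the peaks of 95.2% of protein-coding genes with one. It reached 3817 bp upstream and 2960 bp downstream of the TSS and took in 81.3% of the gene. Actg1, the gamma-actin gene, had a peak of 5911 bp at the 92.2 percentile, with 3734 bp upstream, 2176 bp downstream and 76.3% of the gene covered. In both genes the upstream side was the longer, as it was in 4 of the 52 genes with a peak (7.69%), against 16.5% of protein-coding genes with one. Acta2 had no peak at its TSS, and the nearest one lay 33880 bp upstream at the start of Fas, its neighbour on the opposite strand.

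**Figure D1:**
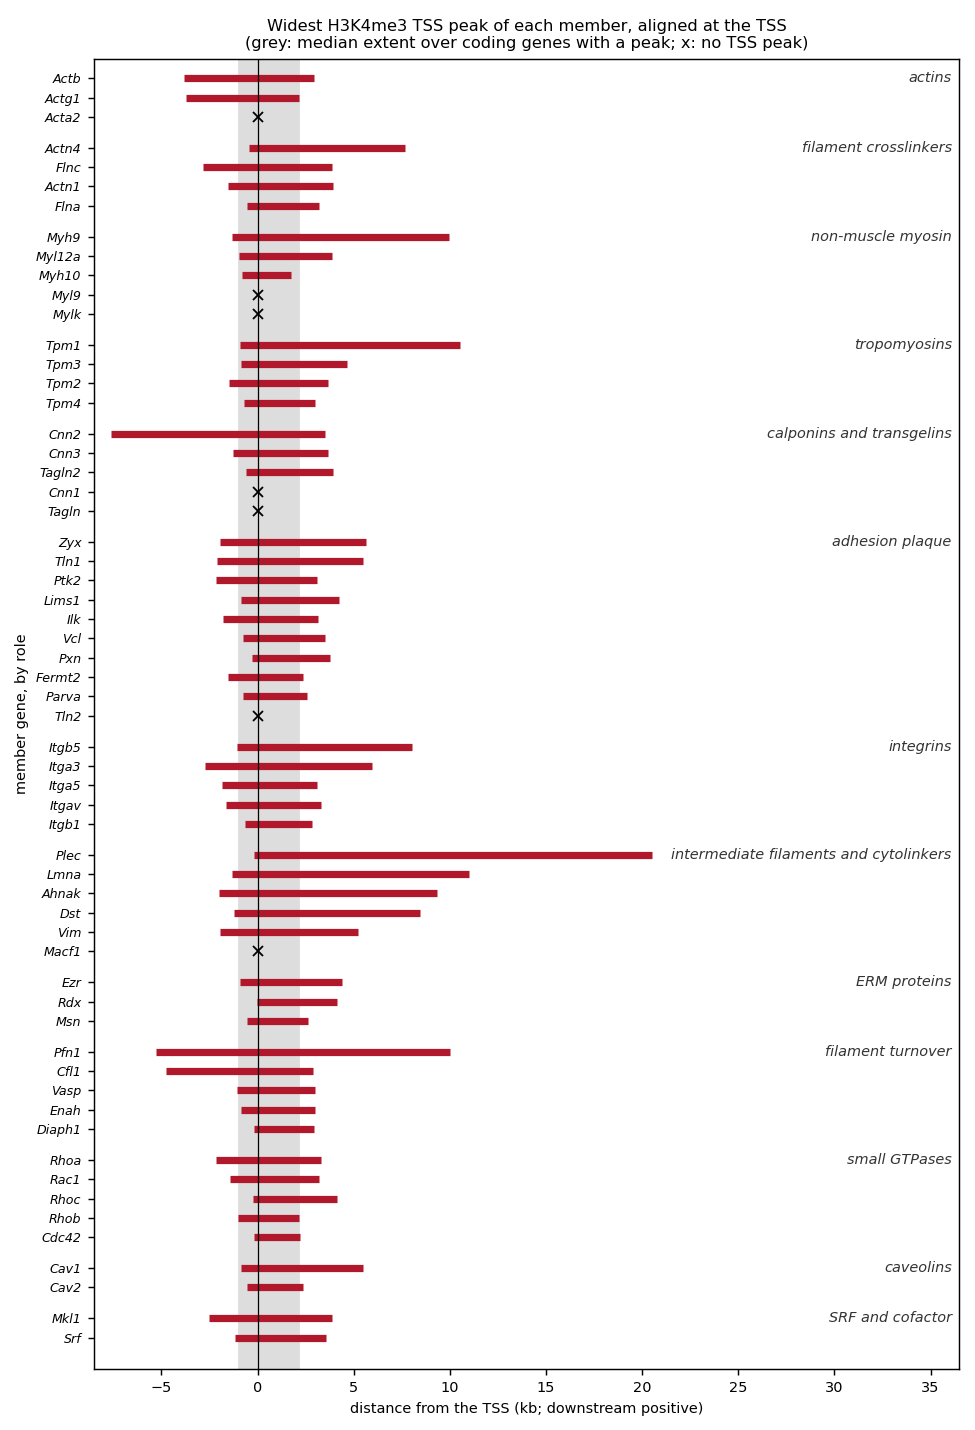
Extent of the widest H3K4me3 TSS peak of each gene in kb from the TSS (the basic TSS farthest upstream in the peak), one row per gene, grouped by role, with grey for the median extent of protein-coding genes with a peak (940 bp upstream to 2138 bp downstream) and a cross for the 7 genes without a TSS peak. The bars of Plec, Tpm1, Lmna, Myh9 and Pfn1 run about 10 kb or more downstream, and that of Cnn2 runs 7636 bp upstream.

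The genes that crosslink filaments all had a peak. Actn4 and Actn1 encode the non-muscle alpha-actinins. Their peaks measured 8143 bp and 5426 bp. Flnc, the filamin best known from muscle, carried 6713 bp, and Flna, the X-linked filamin, carried neighbouring peaks of 2993 bp and 3733 bp at its own 2 promoters, which lie 3265 bp apart. The widest peak of Flna stood at the 63.4 percentile, the lowest of this role.

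In the non-muscle myosin group, the heavy chain genes differed. Myh9, myosin IIA, had a peak of 11320 bp that reached 9973 bp into the gene (99.3 percentile). Myh10, myosin IIB, had one of the narrowest peaks of the set, 2551 bp (28.8 percentile). Myl12a, a regulatory light chain, had a peak of 4822 bp that also reached a TSS of its neighbour and paralog Myl12b. Myl9 and Mylk had no TSS peak, and the nearest peaks lay 44150 bp and 27091 bp from their TSSs.

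All 4 tropomyosin genes, whose products coat and stabilise filaments, had a peak. Tpm1 stood out with 11465 bp (99.4 percentile) over both of its promoter regions, and Tpm3, Tpm2 and Tpm4 followed with 5503 bp, 5195 bp and 3683 bp. Calponins and transgelins bind filaments and are known as smooth muscle markers in their founding members. Cnn2, Cnn3 and Tagln2 had peaks of 11142 bp, 4968 bp and 4530 bp. Cnn1 and Tagln had none. The closest peak to Cnn1 was only 521 bp wide and lay 2937 bp upstream, and the closest to Tagln lay 16175 bp upstream and held a TSS of Sidt2.

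Of 10 adhesion plaque genes, 9 had a peak. Zyx (zyxin, an adapter for filament assembly) and Tln1 (talin 1, the link from integrin to actin) were nearly equal at 7580 bp and 7573 bp, both at the 96.9 percentile. Ptk2, focal adhesion kinase, had 5260 bp. The genes of the complex of ILK, PINCH and parvin had 4952 bp (Ilk), 5059 bp (Lims1) and 3336 bp (Parva). Vcl and Fermt2 carried 4266 bp and 3947 bp, and Pxn (paxillin) had 4054 bp at its main promoter. The missing member was Tln2, with no peak at any of its 3 basic promoter regions. A peak of 3353 bp lay at 72048 to 75400 bp upstream of its outermost basic TSS and held starts that RefSeq predicts for Tln2, and another of 1162 bp lay 13079 bp upstream at a further predicted start.

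All 5 integrin genes of the set had a peak. The widest were those of Itgb5, a partner of alpha-V in vitronectin receptors, with 9109 bp, and Itga3, a laminin receptor subunit, with 8679 bp. Itga5, the fibronectin receptor subunit, and Itgav, the alpha-V subunit, were close to each other at 4943 bp and 4938 bp, and Itgb1, the beta subunit shared by many receptors, had 3488 bp (56.8 percentile).

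The cytolinkers and intermediate filament genes had the widest peaks of any role, with a median of 11348 bp over 5 genes and all 5 in the widest 10% of protein-coding genes. Plec, encoding plectin, carried 20666 bp (chr15:76188672-76209337), and 1 protein-coding gene in the whole list had a wider TSS peak. Lmna, which encodes the nuclear lamins A and C, had 12299 bp. Ahnak, a giant scaffold protein of the cell cortex, had 11348 bp and Dst, the spectraplakin dystonin, had 9710 bp. Vim, encoding vimentin of mesenchymal intermediate filaments, had 7153 bp and 58.8% of the gene was covered. Macf1, the other spectraplakin, had no TSS peak.

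In the ERM group, which joins filaments to the membrane, Ezr, Rdx and Msn had peaks of 5316 bp, 4173 bp and 3149 bp. Among genes of filament turnover, Pfn1 (profilin, which feeds monomers to growing ends) had 15258 bp and was the only gene of the 52 that lay wholly under its TSS peak. That peak also reached the TSSs of Eno3, Rnf167 and Slc25a11. Cfl1 (cofilin, which severs filaments) had 7637 bp in a peak shared with Mus81. Vasp, Enah and Diaph1, which elongate filaments, were narrower at 4065 bp, 3863 bp and 3089 bp.

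The 5 small GTPase genes spanned a broad range of widths, and none was in the widest 10%. Rhoa, the main activator of stress fibres, had 5465 bp (89.9 percentile), just short of the 5477 bp at which the widest 10% began, in a peak shared with Tcta. Rac1 had 4656 bp (81.3 percentile) and Rhoc had 4390 bp (77.3 percentile). Rhob, a gene of a single exon, had 3165 bp over 91.1% of its length. Cdc42, which acts in filopodia, had the narrowest peak of the whole set, 2357 bp (23.6 percentile). The caveolin genes, neighbours on chromosome 6, had separate peaks of 6351 bp (Cav1) and 2896 bp (Cav2). Srf had 4720 bp, and Mkl1 had 6367 bp at its upstream promoter.

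Over the set, widths ran between 2357 bp and 20666 bp. The quartiles were 4062 bp and 7575 bp, against 2410 bp and 4258 bp over protein-coding genes with a peak. The widest 10% of those genes held 21 of the 52 cytoskeletal genes (40.4%), where 10.0% of all such genes lie by construction. At the other end, 6 of the 52 fell below the median of protein-coding genes (Myh10, Cdc42, Cav2, Diaph1, Msn and Rhob), and 1 of these, Cdc42, below the lower quartile. The median percentile was 86.8.

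**Figure D2:**
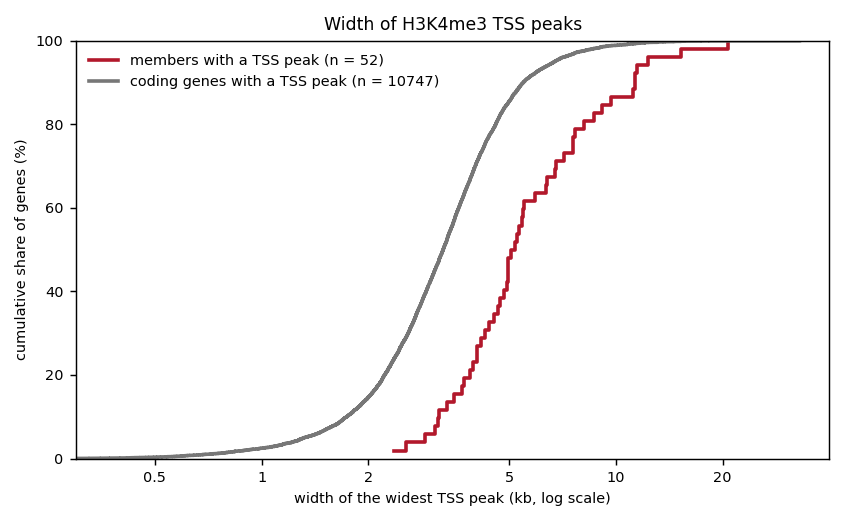
Cumulative share of genes (%) against the width of the widest TSS peak in kb on a log scale, for the 52 cytoskeletal and adhesion genes with a peak (red) and the 10747 protein-coding genes with a peak (grey). The red line lies to the right of the grey one up to the width of Plec, 20666 bp, with medians of 5127 bp and 3254 bp.

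Measured from the TSS farthest upstream in the peak, the additional width lay mainly downstream. By this measure, width over any further promoter in the same peak counts as downstream. The 52 genes reached a median of 3688 bp downstream, against 2138 bp over protein-coding genes with a peak. The median upstream reach was 1122 bp in the set, against 940 bp. A downstream reach of 5 kb or more was measured in 14 of the 52 (26.9%), against 3.64% of protein-coding genes with a peak. The upstream end of the Plec peak stood only 172 bp before its TSS, and that of Rdx 41 bp. The 4 genes with a longer upstream side were Actb, Actg1, Cnn2 and Cfl1, and the peaks of Cnn2 and Cfl1 also took in the TSS of another gene, Tmem259 and Mus81. From the TSS farthest downstream in the peak, the medians of the set were 3353.5 bp downstream and 1556.5 bp upstream. No value over protein-coding genes is given for that measure.

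Few of the peaks were shared with a neighbouring gene. The widest TSS peak reached a TSS of another protein-coding gene in 7 of the 52 genes (13.5%), against 23.7% of protein-coding genes with a peak. The 7 were Pfn1, Cnn2, Cfl1, Tln1 with Creb3, Ilk with Rrp8, Rhoa with Tcta, and Myl12a with Myl12b. Among the 45 other genes the median width was 4968 bp, against 3034 bp over protein-coding genes whose peak reached no other. A TSS of the opposite strand lay within 2 kb of the TSS in 8 of the 52 genes (15.4%), against 30.9%. TSS peaks covered the whole gene in 1 of 52 (1.92%), against 3.47% of protein-coding genes with a peak.

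CpG islands and peaks lay at nearly the same genes of the set. Islands (at least 200 bp, GC fraction at least 0.5, observed over expected CpG at least 0.6) lay within 250 bp of a TSS in 55 of the 59 genes (93.2%), against 68.1% of protein-coding genes. A stricter definition (at least 500 bp, GC fraction at least 0.55, ratio at least 0.65) was met by 51 of the 59 (86.4%), against 58.0%. Of these 55 genes, 52 had a peak (94.5%), against 70.2% of all protein-coding genes with an island promoter. None of the 4 without an island (Acta2, Mylk, Cnn1 and Tln2) had a peak, and 5.02% of protein-coding genes without an island had one. Myl9, Tagln and Macf1 had an island but no peak, and none of these 3 met the stricter definition. Of the 52 genes with a peak, Cav1 alone did not meet it.

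In the window of 250 bp to either side of the TSS richest in CpGs, their number ran between 23 and 96 in the 52 genes with a peak (median 53) and between 7 and 23 in the 7 without (median 11). The ranges met only at 23 CpGs, the value of Cav1, Tagln2 and Lmna with a peak and of Myl9 without. Protein-coding genes with a peak had a median of 43. In Plec, Dst and Flna the TSS richest in CpGs did not lie under the widest peak, so count and width belong to different promoters there. Some genes of the set with few CpGs had wider peaks than the gene with the most, and no correlation between count and width is given. Enah had the most CpGs (96) and a peak of 3863 bp, whereas Lmna with 23 and Vim with 25 CpGs had 12299 bp and 7153 bp. The summed island length under the peak had a median of 1542 bp, against 1166 bp over protein-coding genes with a peak. Across the 52 genes, the Spearman rank correlation between that length and the peak width was 0.39, and across protein-coding genes with a peak it was 0.572. Wider peaks hold more sequence and so more islands, and genes are not independent replicates.

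**Figure D3:**
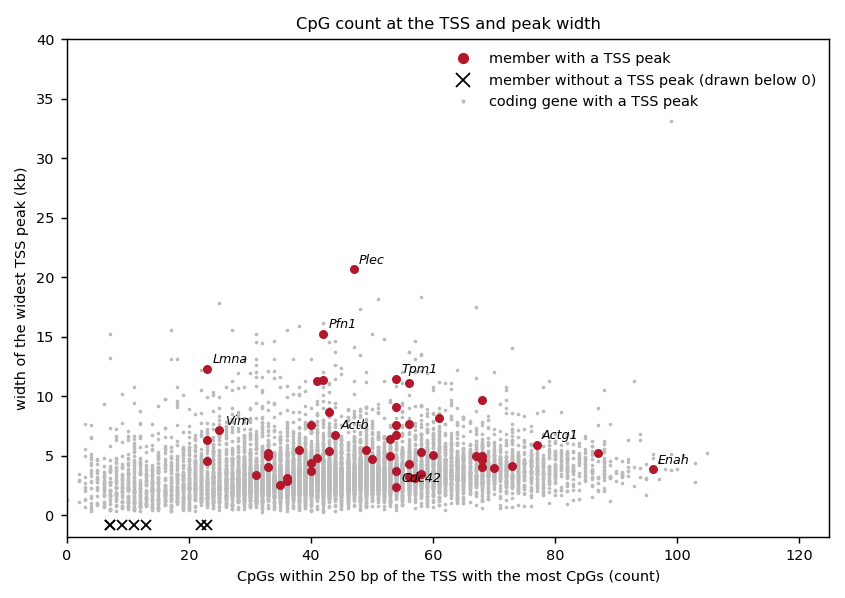
Number of CpGs within 250 bp of the TSS with the most CpGs against the width of the widest TSS peak in kb, for the 52 genes of the set with a peak (red), the 7 without (crosses, drawn below 0) and protein-coding genes with a peak (grey). The crosses lie at 7 to 23 CpGs and the red points at 23 to 96, and Plec, Pfn1, Lmna and Tpm1 stand highest among the red points. The count and the width can come from different promoters of a gene. In Plec the 47 CpGs lie at the promoter with the 4667 bp peak, and the regions under the 20666 bp peak have 10 to 34.

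Many of these genes make several proteins from separate promoters, and the peaks were read against each one. Basic TSSs of a gene within 500 bp of the next were taken as 1 promoter region. Of the 52 genes with a peak, 19 had 2 or more regions, and in 12 of them (63.2%) at least 2 regions had a peak, against 45.4% of such protein-coding genes with a peak. The count depended on the annotation. With comprehensive TSSs it was 24 of 44 (54.5%), against 34.1%, and with RefSeq starts added, a setting chosen after seeing the data, 22 of 31 (71.0%), against 44.9%. The regions lay in separate peaks in 6 of the 52 genes (11.5%), against 2.64% of protein-coding genes with a peak. These 6 were Flna, Pxn, Itgb5, Plec, Dst and Mkl1. Genes with 2 or more regions were 19 of 52 in the set and 2354 of 10747 among protein-coding genes with a peak. The shares of 11.5% and 2.64% take no account of this.

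Plec was the most complex. Its 9 promoter regions give plectins that differ in the first exon and in where they bind in the cell. A peak of 4667 bp covered the region 1881 bp into the gene, and the peak of 20666 bp ran over the 7 regions between 22213 bp and 35668 bp. The outermost region alone had no peak. In Dst, the first of 4 regions had 3558 bp, and 9710 bp covered those at 97657 bp and 103588 bp. The region at 252105 bp had none.

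In Tpm1, whose alternative promoters give long and short tropomyosins, a single peak of 11465 bp covered both regions, 5444 bp apart. In Tpm3 the upstream region had no peak and 5 CpGs, while the region 6891 bp downstream had the peak of 5503 bp and 38 CpGs. Lmna had 1 peak over regions 10023 bp apart. Tagln2, Rdx, Rhoc and Cav1 likewise had 2 close regions under 1 peak.

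The further peaks of the other genes were smaller. Pxn had 1493 bp at a region 37409 bp downstream, Itgb5 had 1189 bp at 62276 bp and Mkl1 had 2703 bp at 85674 bp. These downstream regions had 11, 9 and 13 CpGs, fewer than the 23 that were the lowest count at a best promoter of a gene with a peak. In Lims1, Parva, Itga3, Enah, Diaph1 and Myl12a, only the outermost region had a peak, and the regions without one had between 4 and 11 CpGs.

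**Figure D4:**
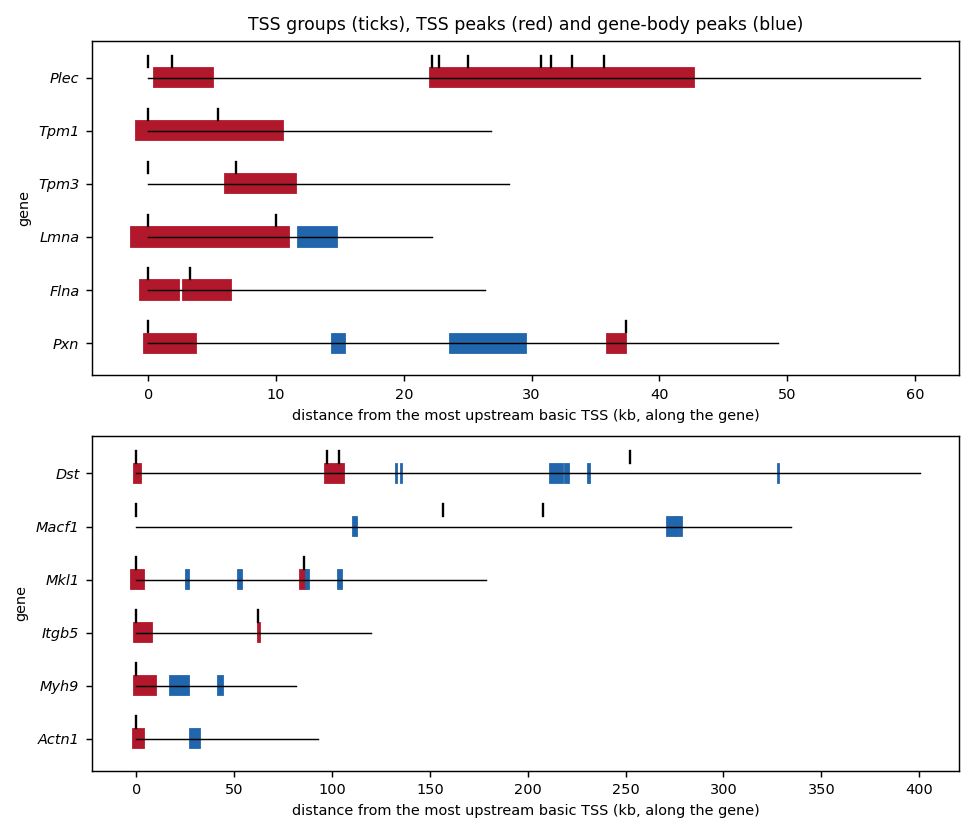
Promoter regions (ticks), TSS peaks (red) and peaks in the gene body away from TSSs (blue) along 12 genes of the set, in kb from the most upstream basic TSS, with the upper panel for shorter genes and the lower for longer ones. In Plec the longer red bar spans 7 ticks, in Tpm3 the first tick has no bar, and Myh9, Dst, Macf1 and Mkl1 have blue bars far from any tick.

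Peaks inside the gene body, more than 250 bp from any basic TSS of a coding or lncRNA gene, were present in 15 genes of the set and numbered 33. Of the 52 genes with a TSS peak, 14 had one (26.9%), against 8.55% of protein-coding genes with a TSS peak. Long genes have more room for them. Among genes of at least 50 kb the counts were 9 of 18 (50.0%), against 19.8%. Macf1, without a TSS peak, was the further gene. Introns alone held 31 of the 33. The exceptions were a peak of 1601 bp over an exon of Itga5 and one of 727 bp across the 3′ end of Actg1.

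The widths of the 33 had a median of 1601 bp and ran between 411 bp and 9694 bp. Over all 1649 such peaks in protein-coding genes the median was 1205 bp. The largest, 9694 bp, lay in an intron of Myh9, 17121 bp to 26814 bp after its TSS, and was wider than the TSS peaks of all but 8 genes of the set. Myh9 had a further one of 2173 bp. Peaks of 6816 bp in Dst, 5902 bp in Pxn and 5214 bp in Actn1 followed. These 4 of at least 5 kb were among 35 such peaks in all protein-coding genes.

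Dst had the most, 6, of 411 bp to 6816 bp, at 132782 bp to 328634 bp from its first TSS. Macf1 had 4, of which the widest measured 4179 bp (chr4:123408816-123412994). It held an island of 1233 bp and Macf1 starts of the comprehensive and RefSeq annotations that are not in the basic one. Mkl1 had 4 of 1586 bp to 1995 bp, and Actn4 had 3 of 691 bp to 2365 bp. Parva (2185 bp and 1075 bp), Itgav (1315 bp and 737 bp) and Ahnak (852 bp and 618 bp) had 2 each, as had Pxn, with a narrow one of 1060 bp. Lmna had 3024 bp close behind its TSS peak, Vasp had 1862 bp and Msn had 956 bp.

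An island was under 11 of these 33 peaks (33.3%), against 35.2% of all such peaks in protein-coding genes. No TSS of the comprehensive GENCODE or the RefSeq annotation lay at 29 of them (87.9%), against 81.1%. Both shares were near those of protein-coding genes at large. The 4 that did were the Macf1 peak above, those of 6816 bp and 678 bp in Dst and that of Vasp. A peak of 3584 bp inside Macf1 was not among the 33, because it lay at the basic TSS of a lncRNA gene, Gm12925. It also held a start that RefSeq predicts for Macf1, 18884 bp into the gene.

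Other genes of the same pathways were taken from 7 lists of 145 genes, of which 91 had a TSS peak (62.8%). The shares were 49.4% over all protein-coding genes and 70.2% over those with an island promoter. Between the lists the shares differed widely. Island promoters differed too, with 12 of 23 muscle contractile genes and all 21 further filament turnover genes having one. Among 26 genes of the Arp2/3 complex and filament nucleators, which start new filaments, 22 had a peak, led by Arpc5l (13106 bp), Fhod1 (7286 bp), Fmnl2 (6292 bp) and Arpc2 (5330 bp), and those without were Cobl, Fmnl1, Was and Wasf3. Among 21 further genes of filament turnover 19 had one, led by the severing protein gelsolin (Gsn, 6032 bp), the capping protein Capzb (5535 bp), Dstn (5432 bp) and Capza1 (5126 bp), and Cap2 and Coro1a had none. Was and Coro1a are best known from blood cells. Whether a peak also reached a neighbouring gene is not given for these lists. The Arpc5l peak lay mostly upstream, with 11121 bp before its TSS and 1984 bp after it.

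Among 27 further adhesion plaque genes 23 had a peak, led by Git1 (11268 bp), Tns2 (9453 bp) and Bcar1 (9296 bp). A TSS peak of the same width as that of Git1 was recorded for Ankrd13b, a gene outside these lists. Fermt1, Fermt3, Parvg and Tns1 had none, so that of the kindlin genes Fermt2 alone was marked. Among 25 further genes of small GTPase signalling to actin 17 had one, led by Arhgef2 (9702 bp), Arhgap35 (6124 bp), Rhog (5440 bp) and Rhod (5296 bp), and genes without one included Arhgdib, Mylk2, Mylk3 and Rac2. All 4 genes in the list of further SRF cofactors had a peak, Elk3 (5270 bp), Elk4 (4909 bp), Mkl2 (2940 bp) and Elk1 (1488 bp). That list does not hold Myocd, which was placed with the muscle contractile genes and had an island promoter but no peak.

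The lists of integrins and of muscle genes were mostly unmarked. Of 19 further integrin genes 3 had a peak, Itgb8 (3866 bp), Itga6 (2621 bp) and Itga1 (1598 bp), and 16 had none, among them Itga10, Itga11, Itga2 and Itga2b. Of 23 muscle contractile genes 3 had a peak, Smtn (4847 bp), Ldb3 (4224 bp) and Actn3 (3542 bp), and 20 had none, among them Acta1, Actc1, Actg2 and Actn2. An island promoter was present in 13 of the 19 integrin genes, and 3 of these 13 had a peak. It was present in 12 of the 23 muscle genes, and 2 of these 12 had a peak.

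**Figure D5:**
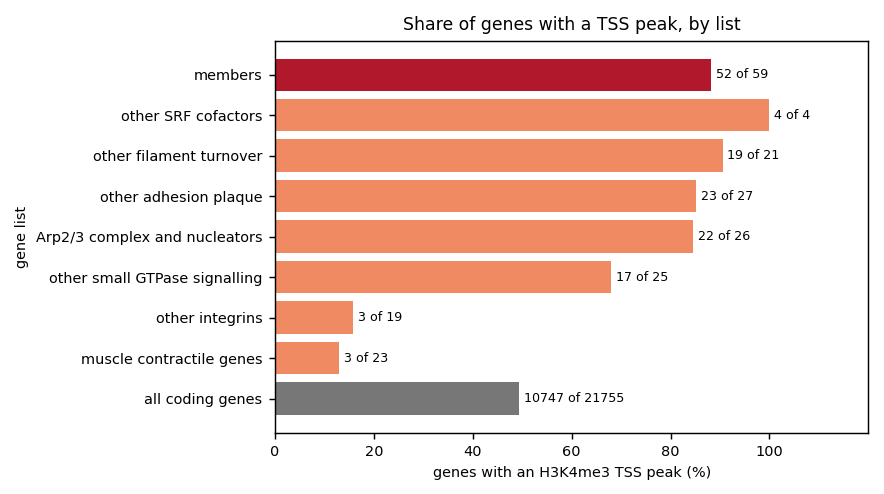
Share of genes with an H3K4me3 TSS peak (%) in the set described here (red), in 7 lists of other genes of the same pathways (orange) and in all protein-coding genes (grey), with counts beside the bars. The set stands at 88.1%, the lists of other integrins and muscle contractile genes at 15.8% and 13.0%, and all protein-coding genes at 49.4%.

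Markers of cell types were read in the same way, since the label is mammary epithelium. A TSS peak was at 2 of 12 luminal markers (Gata3 and Esr1), none of 10 basal and myoepithelial markers, and 10 of 12 markers of fibroblasts and mesenchymal cells (all but Col1a1 and Thy1), a list that shares Vim with the set. The basal list shares Acta2 and Cnn1 with the set and Myh11 and Itgb4 with the other lists above, so its count partly restates values already given. The epithelial keratin genes Krt8, Krt18, Krt5 and Krt14 and the adhesion genes Cdh1 and Epcam had no TSS peak. None of 8 skeletal and cardiac muscle (5 of them in the list of muscle contractile genes), 4 endothelial and 4 immune markers had one. The share was 49.4% over all protein-coding genes and 70.2% over those with an island promoter. Island promoters were at all 12 luminal, 6 of 10 basal and all 12 fibroblast and mesenchymal markers. They were at 4 of the 8 muscle, 2 of the 4 endothelial and 0 of the 4 immune markers. The part of cell identity in the pattern of the cytoskeletal genes was not tested.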

How the data were processed

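H3K4me3 ChIP-seq of C127 cells was analysed from 1 peak list that stands for 3 replicates. The remaining 21 samples were not used here. By the methods of the study, the authors aligned reads to mm10 with bowtie2, discarded reads without a unique position, removed duplicates with SAMtools, called peaks with MACS per replicate against input, kept those found in all replicates and merged peaks within 250 bp. The submitters' processing notes give Bowtie2, SAMtools and MACS2 without versions. The deposited list has 3 columns, the chromosome, start and end, with no score or read count. Widths therefore depend on the caller and on merging, and a promoter that recurs elsewhere can lack a peak.

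Starts were made 1-based and 13447 peaks on 20 chromosomes were used. TSSs came from GENCODE vM21, islands from the GRCm38.p6 sequence. Percentiles give the share of protein-coding genes with a TSS peak that had a narrower one. Counting was tested on simulated peaks. Members and lists were chosen with earlier results of these data known, and no statistical test was made. Full values are given for the actins, genes without a TSS peak, the 10 widest and 5 narrowest, and those with separate TSS peaks or body peaks. Of other lists up to 4 genes a side are named, the widest with a peak and the first by alphabet without, and a gene that this rule would name is not reported here. Further marker genes and Myocd were named after their values were seen. Scripts ran in Python 3.11.15 with scipy 1.17.1, pandas 2.3.3, matplotlib 3.10.9 and numpy 2.4.6.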

Additional observations from a re-analysis of the deposited data

How the results depend on the processing

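The number of genes with a TSS peak was between 50 and 54 under the 6 alternatives tried. Taking 1 TSS per gene lost Plec and Tpm3, comprehensive TSSs added Macf1, and RefSeq starts, an alternative chosen after seeing the data, added Macf1 and Tln2. The median width stayed between 4960 bp and 5288 bp and its percentile between 85.3 and 89.2. With stricter islands, the share of protein-coding genes with an island promoter that had a peak was 77.6%, and all 51 genes of the set with such an island had one. From the TSS farthest downstream in the peak, the median upstream reach was 1556.5 bp, by construction longer, and the median downstream reach 3353.5 bp. The number of genes with a peak at 2 or more promoter regions was 24 with comprehensive TSSs and 22 with RefSeq starts added, since both define more regions. Genes with separate TSS peaks then numbered 9 and 8. Genes with a body peak numbered 12 to 15 and their peaks 22 to 33, the fewest when peaks under 1000 bp were left out. No paired analysis was possible because the 3 replicates share 1 list and no result comes from a test. The peak list gives no read depth, and the signal track was not used here, so whether a missing peak reflects absent H3K4me3 or a signal below the caller's threshold was not tested.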
